A study of Mus musculus with 45 samples.

Results

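Cyclins are the regulatory subunits that switch cyclin-dependent kinases (CDKs) on, and CDK inhibitors are the proteins that hold these kinases back. The genes described here are 6 cyclins (Ccnd2, Ccnd3, Ccne1, Ccne2, Ccna2 and Ccnb1) and 4 CDK inhibitors (Cdkn1b, Cdkn2a, Cdkn2b and Cdkn2c). They were taken by symbol from the deposited expression tables, and all 10 were present, among the 33924 genes listed. All 10 were also among the 21979 genes of the ΔPG table and the 22048 genes of the ΔG table that were not 0 in every sample.

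Cells in G1 phase commit to division when D-type cyclins with Cdk4 or Cdk6, and then E-type cyclins with Cdk2, phosphorylate the retinoblastoma protein and release E2F transcription factors. Cyclin A2 serves S phase and G2, and cyclin B1 drives mitosis with Cdk1. The INK4 inhibitors (the products of Cdkn2a, Cdkn2b and Cdkn2c) bind Cdk4 and Cdk6, whereas p27Kip1, the product of Cdkn1b, binds cyclin E and cyclin A complexes with Cdk2. Mouse embryonic stem cells (ESCs) are known for a short G1 phase and for low levels of D-type cyclins and INK4 inhibitors, and retinoic acid is widely used to make them differentiate.

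RNA sequencing was performed on 24 libraries of mouse D3 ESCs (strain 129), in 8 groups of 3 biological replicates. In ΔPG cells, the long noncoding RNA gene 5430416N02Rik and its promoter are replaced by a PGK-puro cassette, whereas in ΔG cells a GFP-IRES-Puro cassette replaces the gene body alone and the promoter stays. In heterozygous cells 1 allele is replaced and in homozygous cells both are. Each line and genotype was cultured for 48 h either in DMSO as undifferentiated cells (ES) or in 2 µM retinoic acid (RA). The comparisons asked whether losing the second allele changed expression in undifferentiated or differentiated cells, and what RA did in each genotype. Every group, heterozygous controls included, carries a selection cassette and lacks at least 1 allele, and no wild-type library was analysed here. The labels name no clone, so genotype and clone cannot be told apart.

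Expression is given as regularized log (rlog) values. These are log2 values, so a difference of 1 corresponds to a 2-fold change. The rlog transformation pulls weakly expressed genes toward their mean, and differences of low genes therefore understate fold changes. Levels of different genes cannot be ranked, since rlog values are not set per length, and the ΔPG and ΔG tables were normalized separately, so tests stay within a table. A gene was called when limma gave a Benjamini-Hochberg adjusted p under 0.1 over all genes tested and an absolute log2 difference over 0.5. Taken alone, 3 against 3 samples cannot give an exact permutation p below 0.1. Sequencing depth per library is unknown from such values. In whole-culture RNA, fewer cells of a kind and less RNA per cell cannot be told apart.

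The deleted gene was lower in homozygous than in heterozygous cells in all 4 comparisons, with log2 differences of −2.30 (ΔPG ES), −1.81 (ΔPG RA), −2.79 (ΔG ES) and −2.75 (ΔG RA) for 5430416N02Rik. RA lowered all 6 ES cell markers (Pou5f1, Nanog, Sox2, Zfp42, Esrrb and Klf4) and raised all 5 RA response markers in each line and genotype. Markers of other cell types rose along with them. All 5 endoderm markers, both measured neural markers (Pax6 and Nes, of 3 listed) and 3 of 4 fibroblast markers (the collagens) were called higher in each of the RA comparisons, and the remaining one, Thy1, was called lower in both ΔPG comparisons. The mean rlog value over the endoderm markers ranged from 2.77 to 3.14 in ΔPG ES samples and from 5.18 to 5.71 in ΔPG RA samples, and from 2.86 to 3.11 and from 5.69 to 5.86 in ΔG samples. For the neural markers these ranges were 5.21 to 5.63 and 7.25 to 7.39 in ΔPG and 5.11 to 5.37 and 7.39 to 7.53 in ΔG. For the fibroblast markers they were 3.21 to 3.50 and 5.80 to 6.06 in ΔPG and 2.76 to 3.12 and 5.38 to 6.01 in ΔG. The part of these cell types in the RA differences of the cyclins and inhibitors was not tested. Trp53, the gene of the p53 transcription factor, differed between the lines' groups: its mean rlog value was 7.05 and 6.04 in heterozygous ΔPG cells (ES and RA), 4.02 and 3.83 in homozygous ΔPG cells, and between 2.28 and 2.62 in the 4 ΔG groups.

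The ΔPG ES libraries also differed by base composition. Over the 11904 genes whose mean rlog value reached 3, the homozygous minus heterozygous difference fell with the GC content of the gene's exons, with Pearson's r = −0.71 and Spearman's rho = −0.74 across genes, which are not independent replicates. Its median was 0.59 among the 10% of genes poorest in GC and −0.45 among the 10% richest in GC. In ΔG ES cells the same r was 0.006 across 11997 genes. Between the ΔPG genotypes in RA it was −0.001, and for the ΔPG interaction 0.69. For RA minus ES it was −0.21 in heterozygous and 0.12 in homozygous ΔPG cells, and 0.11 and 0.13 in ΔG cells. Which of the ΔPG ES groups departs from the others was not tested. Values after removal of the GC trend are given wherever they change the call of a member.

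Sequences upstream of the transcription starts were read for the members with the strongest RA response and for Ccnb1, a textbook example of a cell cycle promoter. RefSeq (GRCm38.p6) start sites were present for 7 of the 10 members, and Ccnd2, Ccne2 and Ccna2 were not among them. Each sequence runs 5′ to 3′ on the strand of the gene over the 250 bases before the start. Capitals mark matches on either strand to CCAAT (the CCAAT box), to TTTGAA or TTTAAA (the cell cycle genes homology region, CHR), to TTTNGCGC (an E2F motif) and to AGGTCA (the unit that retinoic acid receptors and other nuclear receptors bind). Cdkn2a has 2 starts. Transcripts from the upstream start encode p19Arf, which acts on the p53 pathway, and those from the downstream start encode p16Ink4a, the CDK inhibitor, and the gene-level values cannot separate them.
Cdkn2a, upstream start (chr4:89294620-89294869, minus strand): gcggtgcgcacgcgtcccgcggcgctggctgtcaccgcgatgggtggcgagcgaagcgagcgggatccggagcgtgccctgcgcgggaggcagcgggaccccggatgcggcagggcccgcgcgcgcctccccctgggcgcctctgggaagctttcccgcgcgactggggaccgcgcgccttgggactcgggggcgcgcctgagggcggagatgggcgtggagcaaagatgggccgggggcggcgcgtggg
Cdkn2a, downstream start (chr4:89282193-89282442, minus strand): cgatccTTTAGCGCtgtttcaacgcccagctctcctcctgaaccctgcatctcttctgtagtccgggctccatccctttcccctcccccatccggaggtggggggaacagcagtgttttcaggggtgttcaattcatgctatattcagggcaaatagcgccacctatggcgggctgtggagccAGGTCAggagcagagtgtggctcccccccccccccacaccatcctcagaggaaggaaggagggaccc
Cdkn2b (chr4:89311033-89311282, minus strand): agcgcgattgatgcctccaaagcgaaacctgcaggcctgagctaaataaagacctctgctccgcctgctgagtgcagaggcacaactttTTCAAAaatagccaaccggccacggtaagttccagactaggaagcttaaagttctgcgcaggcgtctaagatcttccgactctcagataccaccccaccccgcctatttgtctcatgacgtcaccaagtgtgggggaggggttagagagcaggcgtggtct
Ccnb1 (chr13:100786487-100786736, minus strand): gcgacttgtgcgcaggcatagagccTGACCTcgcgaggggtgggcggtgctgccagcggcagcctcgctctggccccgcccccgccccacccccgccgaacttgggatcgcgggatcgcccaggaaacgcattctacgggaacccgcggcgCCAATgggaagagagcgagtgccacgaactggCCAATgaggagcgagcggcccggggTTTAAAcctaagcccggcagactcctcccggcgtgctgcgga

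In this window Ccnb1 held 2 CCAAT boxes, whose first bases lie 99 and 67 bases before the start, a CHR match at 42 bases and an AGGTCA match at 225 bases. The downstream Cdkn2a window held an E2F motif at 244 bases and AGGTCA at 67 bases, and the upstream window held none of the motifs. Cdkn2b held a CHR match at 161 bases. Among all 32851 windows of that length in the table, 33.8% held a CCAAT box, 25.2% a CHR match, 1.13% the E2F motif and 14.0% AGGTCA. A DR5 element is the paired arrangement of AGGTCA-like units, 5 bases apart, that retinoic acid receptors prefer. It was read with the looser unit RGKTCA, where R is A or G and K is G or T. Such a pair was in 0.0883% of the windows and in none of the 10 windows of the members. Of the other members, both Cdkn1b and Ccne1 held a CHR match at 15 bases, and Cdkn1b also held 2 CCAAT boxes. Ccnd3 held AGGTCA at 97 bases from its first listed start and a CCAAT box at 108 bases from the other, and Cdkn2c held AGGTCA at 180 bases from 1 of its 2 starts. These matches are letters in a window and were not tested for binding.

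After 48 h of RA, Ccnd2, Cdkn2a and Cdkn2b rose and Ccnd3 fell in both lines and both genotypes. Cdkn2c rose in both genotypes of ΔG cells, and Ccne2 rose in heterozygous ΔPG cells. Ccne1, Ccna2, Ccnb1 and Cdkn1b were called in none of these comparisons. In heterozygous ΔPG cells 5 of the 10 members were called, where 31.6% of all genes tested were, and 8 passed the adjusted p alone, against 57.4% of all genes. In homozygous ΔPG cells 4 were called (27.8% of all genes), and 9 passed the adjusted p alone (52% of all genes). In heterozygous ΔG cells 5 were called (29.5% of all genes) and in homozygous ΔG cells 5 were called (29.2% of all genes), and all 10 passed the adjusted p alone in both, against 54.5% and 53.4% of all genes. All 10 members reached a mean rlog value of 3, and genes that did were called more often than all genes. Fitted alone, 5887 and 5068 of 11904 such genes were called in heterozygous and homozygous ΔPG cells. In ΔG cells these were 5457 and 5569 of 11997. The median log2 difference over the members was 0.24 and 0.05 in heterozygous and homozygous ΔPG cells and 0.30 and 0.17 in ΔG cells, and over all genes it lay between 0.01 and 0.04.

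**Figure D1:**
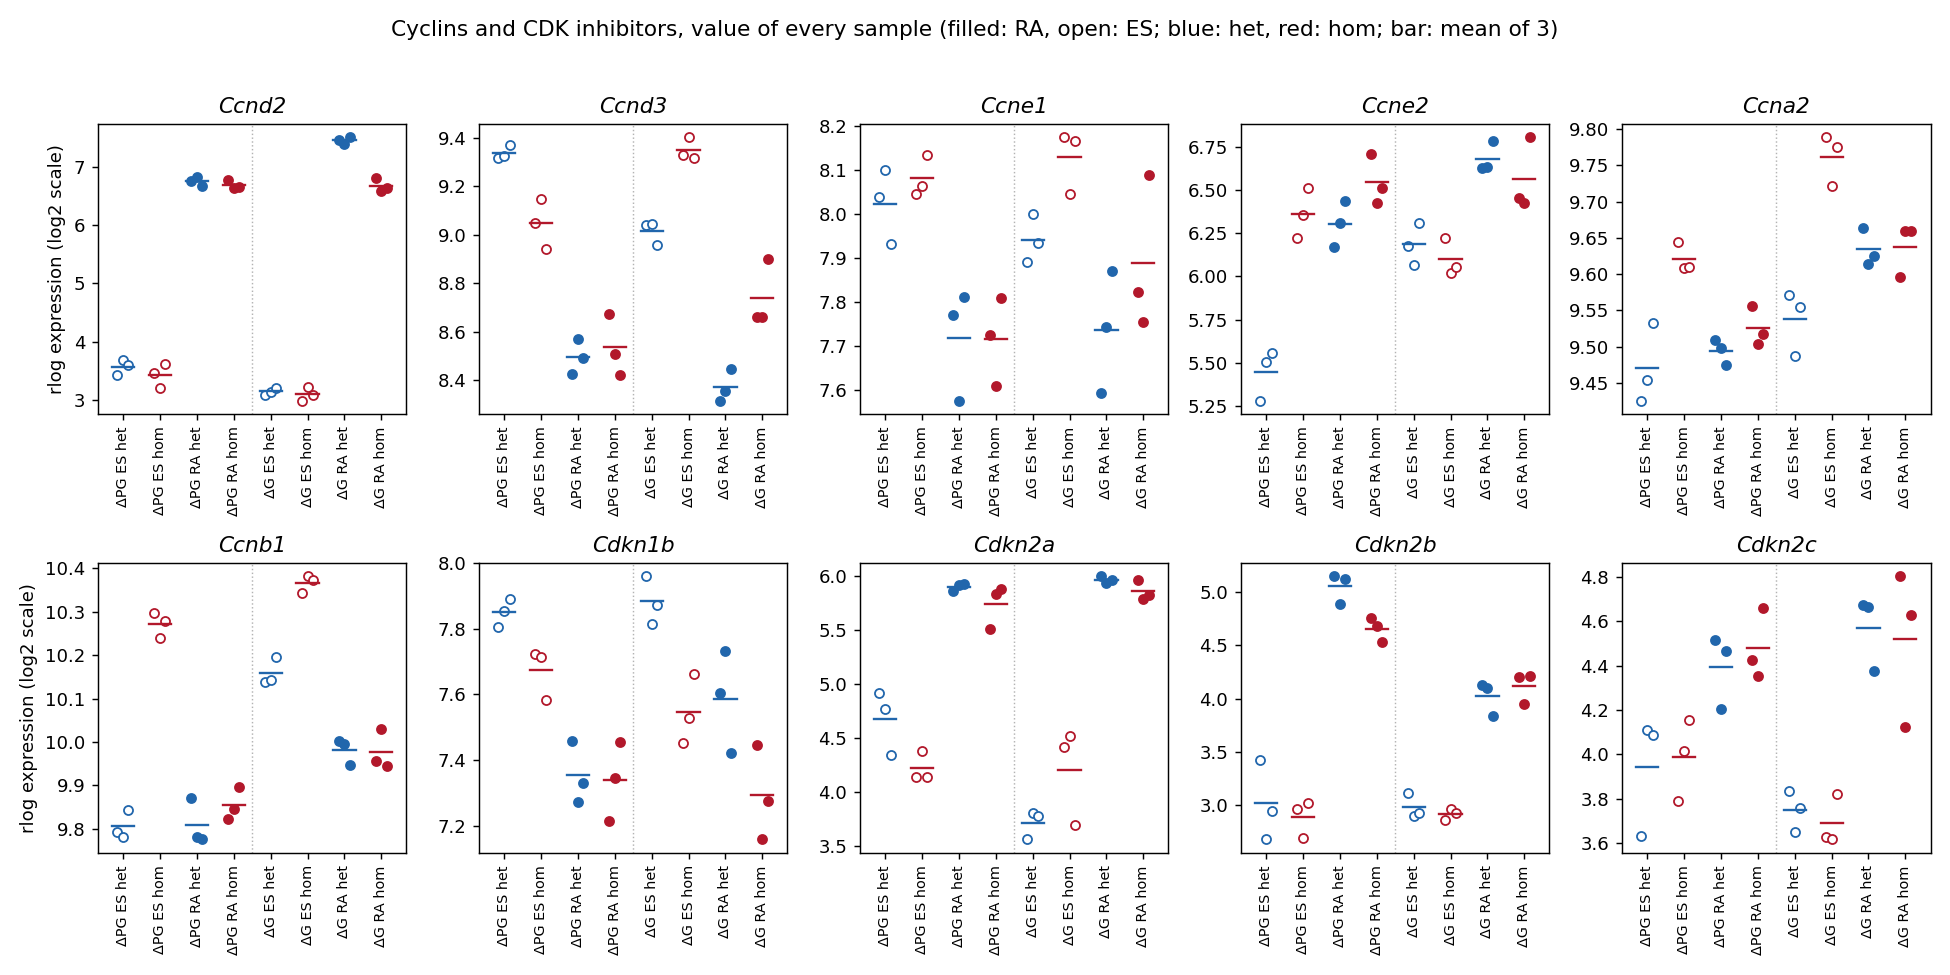
rlog value (log2 scale) of each member in each of the 24 samples, with ES samples as open and RA samples as filled circles, heterozygous in blue, homozygous in red, and a bar at the mean of the 3 samples. Left of the dotted line are ΔPG and right of it ΔG samples, normalized separately, and the vertical axis differs between panels. Ccnd2 lies between 2.99 and 3.69 in every ES sample and between 6.59 and 7.51 in every RA sample, whereas Ccna2 spans 0.22 (ΔPG) and 0.30 (ΔG) over the 12 samples of a table.

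Ccnd2, the gene of cyclin D2 (ENSMUSG00000000184, NCBIM37 chr6:127075797-127101066, minus strand), had the largest RA difference of the 10 members in all 4 comparisons. In heterozygous ΔPG cells its rlog value was 3.43, 3.69 and 3.60 in ES and 6.75, 6.82 and 6.67 in RA. In homozygous ΔPG cells it was 3.47, 3.20 and 3.62 in ES and 6.78, 6.64 and 6.65 in RA. Every RA sample lay about 3 units above every ES sample of its line and genotype. The log2 differences were 3.18 ± 0.093 (SE, 9.04-fold, limma adjusted p = 1.41e-07) and 3.26 ± 0.13 (9.55-fold, adjusted p = 3.36e-09). In heterozygous ΔG cells the values were 3.09, 3.15 and 3.21 in ES and 7.46, 7.39 and 7.51 in RA, and in homozygous ΔG cells 2.99, 3.22 and 3.08 in ES and 6.81, 6.59 and 6.64 in RA. The ES samples of ΔG overlapped between genotypes, and the RA samples did not. The log2 differences were 4.30 ± 0.098 (19.7-fold, limma adjusted p = 7.27e-13) and 3.58 ± 0.12 (11.9-fold, adjusted p = 4.58e-14).

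Ccnd3, the gene of cyclin D3 (ENSMUSG00000034165, chr17:47642000-47736632, plus strand), moved the other way. It was 9.32, 9.32 and 9.37 in heterozygous ΔPG ES samples and 8.43, 8.57 and 8.49 with RA, and 9.05, 9.15 and 8.94 against 8.68, 8.51 and 8.42 in homozygous ΔPG samples. RA and ES samples did not overlap in either genotype, with log2 differences of −0.84 ± 0.040 (SE, limma adjusted p = 1.54e-06) and −0.51 ± 0.070 (adjusted p = 8.69e-05). The homozygous value lies next to the limit of 0.5, and its call was lost without the ES replicate 2 (−0.46), the RA replicate 2 (−0.50) or the RA replicate 3 (−0.46), with quantile normalization (−0.37) and at an adjusted p under 0.05 with a fold over 1.5. In ΔG cells Ccnd3 went from 9.04, 9.05 and 8.96 to 8.32, 8.36 and 8.45 in heterozygous and from 9.33, 9.40 and 9.32 to 8.66, 8.66 and 8.90 in homozygous samples. Again no RA sample reached an ES sample of its genotype, and the log2 differences were −0.64 ± 0.056 (limma, adjusted p = 3.85e-07) and −0.61 ± 0.062 (adjusted p = 1.75e-07). Quantile normalization brought the homozygous ΔG value to −0.45, below the limit.

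Cyclin E, which acts after the D-type cyclins in G1, is encoded by Ccne1 (ENSMUSG00000002068, chr7:38883003-38892553, minus strand) and Ccne2 (ENSMUSG00000028212, chr4:11118498-11131926, plus strand). For Ccne2 the rlog value in heterozygous ΔPG cells was 5.28, 5.51 and 5.56 in ES and 6.17, 6.31 and 6.44 in RA. The groups did not overlap, and the log2 difference of 0.86 ± 0.10 (SE, limma adjusted p = 0.000207) was called. With the trend on GC content removed it was 0.35 and no longer called, and the exons of Ccne2, at 37.6% GC, are the lowest in GC of the 10 members. In homozygous ΔPG cells Ccne2 was 6.22, 6.35 and 6.51 in ES and 6.71, 6.42 and 6.51 in RA, with overlapping groups and a log2 difference of 0.19 ± 0.10 (limma, adjusted p = 0.17). In ΔG cells its difference of 0.50 ± 0.091 (heterozygous) and 0.46 ± 0.11 (homozygous) stayed just under the limit of 0.5, although RA and ES samples did not overlap in either genotype. Both passed it with the GC trend removed, at 0.73 and 0.75. Ccne1 had negative differences in all 4 comparisons, from −0.37 (homozygous ΔPG) to −0.20 (heterozygous ΔG), each with an adjusted p under 0.1 and none past the limit of 0.5.

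Ccna2 (ENSMUSG00000027715, chr3:36463788-36471072, minus strand) and Ccnb1 (ENSMUSG00000041431, chr13:101548605-101556525, minus strand) serve S phase, G2 and mitosis. Ccna2 had small log2 differences between RA and ES, of 0.02 and −0.09 in heterozygous and homozygous ΔPG cells and 0.10 and −0.12 in ΔG cells. Outside heterozygous ΔPG cells, RA and ES samples did not overlap and the adjusted p was under 0.1 (limma, 0.0454, 0.0831 and 0.0181 in that order). For Ccnb1 the RA difference was 0.00 ± 0.033 (SE) in heterozygous and −0.42 ± 0.034 in homozygous ΔPG cells. In ΔG cells it was −0.18 ± 0.038 and −0.39 ± 0.036. Again outside heterozygous ΔPG cells, RA and ES samples did not overlap (limma, adjusted p = 1.2e-06, 0.00139 and 4.48e-08). With the GC trend removed, the heterozygous and homozygous values were −0.29 and −0.35 in ΔPG and −0.12 and −0.32 in ΔG. None of these was called. The homozygous ES samples were the high ones: 10.30, 10.24 and 10.28 in ΔPG and 10.34, 10.38 and 10.37 in ΔG, against a highest RA value of 9.90 in ΔPG and 10.03 in ΔG.

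Among the inhibitors, Cdkn1b (ENSMUSG00000003031, chr6:134870419-134875531, plus strand) had a negative RA difference in all 4 comparisons, all with an adjusted p under 0.1 and none past the limit. The log2 differences were −0.50 ± 0.055 (SE) and −0.33 ± 0.074 in heterozygous and homozygous ΔPG cells and −0.30 ± 0.082 and −0.25 ± 0.087 in ΔG cells. The heterozygous ΔPG value just missed the limit of 0.5 and passed it without the ES replicate 1 (−0.52), without the RA replicate 1 (−0.55), with median centring (−0.53) and with the GC trend removed (−0.78).

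Cdkn2a and Cdkn2b are neighbors on chromosome 4, with 11.6 kb between the annotated genes (Cdkn2a: ENSMUSG00000044303, chr4:88920377-88940557; Cdkn2b: ENSMUSG00000073802, chr4:88952198-88956941; both on the minus strand). Cdkn2a was 4.92, 4.77 and 4.34 in heterozygous ΔPG ES samples and 5.87, 5.92 and 5.93 with RA. In homozygous ΔPG samples it went from 4.14, 4.38 and 4.14 to 5.51, 5.84 and 5.89. In ΔG it went from 3.56, 3.80 and 3.78 to 6.01, 5.94 and 5.96 in heterozygous and from 4.42, 4.51 and 3.69 to 5.97, 5.79 and 5.82 in homozygous samples. No ES sample reached an RA sample. The log2 differences were 1.23 ± 0.14 (SE, 2.34-fold, limma adjusted p = 0.00022) and 1.53 ± 0.14 (2.88-fold, adjusted p = 2.6e-06) in ΔPG. They were 2.25 ± 0.11 (4.77-fold, limma adjusted p = 1.09e-09) and 1.66 ± 0.17 (3.15-fold, adjusted p = 1.99e-07) in ΔG.

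Cdkn2b, which encodes p15Ink4b, was 3.43, 2.68 and 2.95 in heterozygous ΔPG ES samples and 5.15, 4.89 and 5.12 with RA, and 2.97, 2.69 and 3.02 against 4.76, 4.68 and 4.53 in homozygous ΔPG samples. In ΔG it was 3.12, 2.90 and 2.93 against 4.13, 4.10 and 3.84 in heterozygous and 2.86, 2.96 and 2.93 against 4.20, 3.95 and 4.21 in homozygous samples. The groups were fully separated in all 4 comparisons. The log2 differences were 2.03 ± 0.20 (SE, 4.10-fold, limma adjusted p = 7.16e-05) and 1.76 ± 0.15 (3.39-fold, adjusted p = 2.25e-06) in ΔPG. In ΔG they were 1.04 ± 0.13 (2.06-fold, limma adjusted p = 1.66e-05) and 1.20 ± 0.14 (2.30-fold, adjusted p = 6.52e-07).

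Cdkn2c (ENSMUSG00000028551, chr4:109333481-109339794, minus strand) encodes p18Ink4c. It was 3.84, 3.65 and 3.76 in heterozygous ΔG ES samples and 4.67, 4.67 and 4.38 with RA, and 3.63, 3.62 and 3.82 against 4.81, 4.12 and 4.63 in homozygous ΔG samples. RA and ES samples did not overlap, and both differences were called, at 0.82 ± 0.13 (SE, limma adjusted p = 9.34e-05) and 0.83 ± 0.16 (adjusted p = 0.000313). With quantile normalization they were 0.38 and 0.40 and not called. In ΔPG cells the differences were 0.45 ± 0.16 (limma, adjusted p = 0.0516) and 0.49 ± 0.15 (adjusted p = 0.0198), again without overlap and below the limit of 0.5. These values depended on the setting. Leaving out single samples gave 0.30 to 0.55 in heterozygous and 0.39 to 0.58 in homozygous ΔPG cells, and quantile normalization gave 0.07 (limma, adjusted p = 0.791) and 0.09 (adjusted p = 0.646). With the GC trend removed the heterozygous value was 0.71 and called, and the homozygous value was 0.36 and not called.

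**Figure D2:**
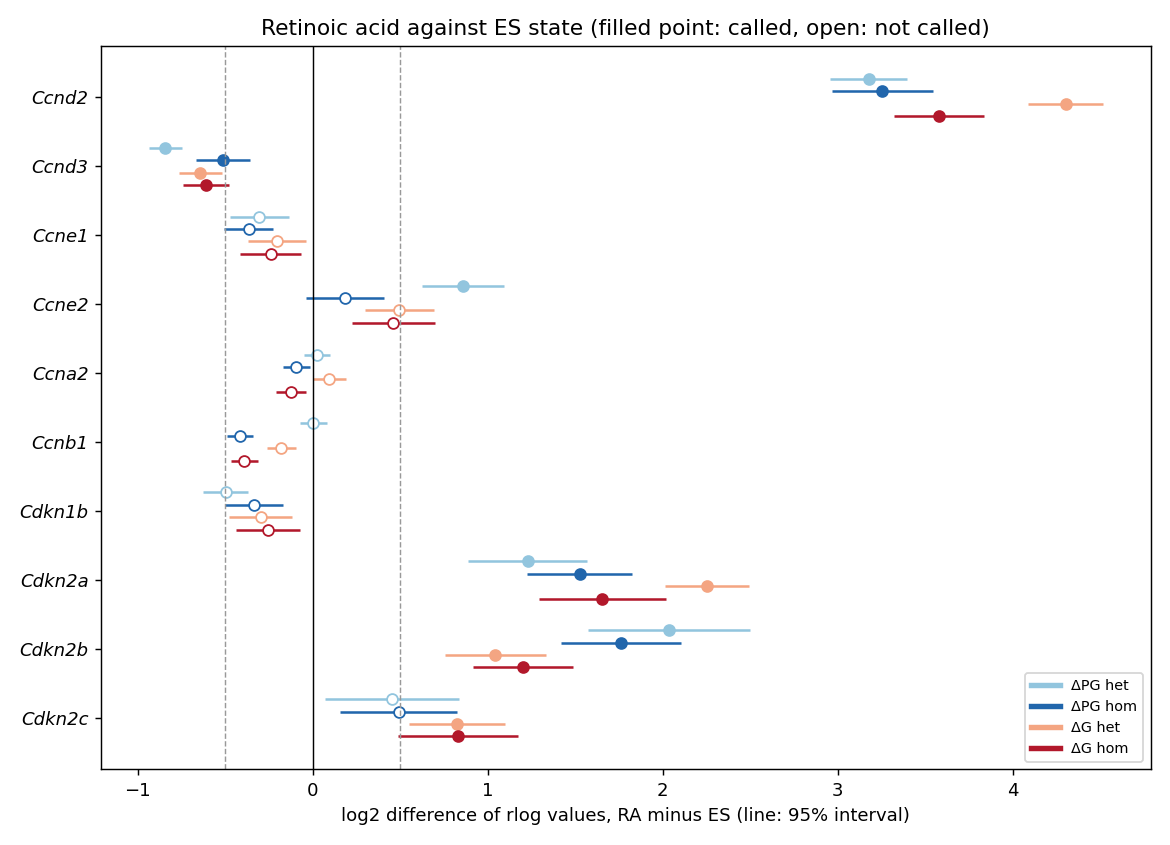
RA minus ES difference of rlog values (log2, horizontal axis) for each member in heterozygous and homozygous ΔPG and ΔG cells, with points at the limma estimate (3 against 3 samples) and lines for 95% intervals. Filled points were called, and dashed lines mark the limit of 0.5. Ccnd2, Cdkn2a and Cdkn2b lie to the right and Ccnd3 to the left in all 4 comparisons.

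In undifferentiated cells, losing the second allele was accompanied by 1 called member in ΔPG cells, Ccne2, and by none in ΔG cells. For ΔPG ES cells, 13.2% of all genes were called and 36.1% passed the adjusted p alone, and 6 of the 10 members passed the latter. For ΔG ES cells these shares were 0.984% and 5.22% of all genes, and 4 of the 10 members passed the adjusted p alone by limma. In ΔG, 5 members had an unadjusted p under 0.05 (limma), as did 3406 of the 22048 genes tested. The median log2 difference over the members was −0.04 in ΔPG and 0.07 in ΔG, and over all genes it was 0.00 and −0.01.

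Ccne2 separated the ΔPG genotypes in ES. The 3 homozygous samples listed above were all above 6.2 and the 3 heterozygous samples all below 5.6, a log2 difference of 0.91 ± 0.10 (SE, 1.88-fold, limma adjusted p = 0.000316). With the GC trend removed the difference was 0.14 (adjusted p = 0.307). In ΔG ES cells the Ccne2 samples overlapped (6.18, 6.07 and 6.31 in heterozygous, 6.22, 6.02 and 6.05 in homozygous cells), with a difference of −0.09 ± 0.093. The effect in ΔPG was not tested against that in ΔG, since the tables were normalized separately.

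Ccnb1 was higher in homozygous than heterozygous ES samples of both lines without overlap, by 0.47 ± 0.027 (SE, limma adjusted p = 1.11e-05) in ΔPG and by 0.21 ± 0.026 (adjusted p = 0.00867) in ΔG, both below the limit of 0.5. Its heterozygous samples were at 9.79, 9.78 and 9.84 in ΔPG and at 10.14, 10.14 and 10.20 in ΔG. Removing the GC trend left 0.10 in ΔPG and 0.20 in ΔG. Ccna2 was likewise higher by 0.15 ± 0.033 (limma, adjusted p = 0.0101) in ΔPG, where the value without the trend was −0.02, and by 0.22 ± 0.035 (adjusted p = 0.0208) in ΔG, where it was 0.23. Cdkn1b had a log2 difference of −0.18 ± 0.052 (limma, adjusted p = 0.0352) in ΔPG ES and −0.34 ± 0.070 (adjusted p = 0.0567) in ΔG ES cells, with no overlap between genotypes in either. With the GC trend removed these were −0.53, which was called, and −0.34, which was not.

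For Ccnd3 the genotypes were separated in both lines but in opposite directions. In ES cells the homozygous minus heterozygous log2 difference was −0.29 ± 0.051 (SE, limma adjusted p = 0.00308) in ΔPG and 0.33 ± 0.041 (adjusted p = 0.00812) in ΔG, neither past the limit of 0.5. The ΔPG sign turned with the GC trend removed (0.16), while the ΔG value stayed at 0.34. The exons of Ccnd3 and Cdkn2a, at 59.6% GC each, are the highest of the members.

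Cdkn2a samples overlapped between genotypes in ES cells of both lines. Its difference was −0.46 ± 0.16 (SE, limma adjusted p = 0.0712) in ΔPG and 0.49 ± 0.22 (adjusted p = 0.337) in ΔG. Single samples decided both. Without the heterozygous replicate 3 (4.34) or the homozygous replicate 2 (4.38) the ΔPG difference was −0.63 or −0.54 and called, and with the GC trend removed it was −0.01. Without the homozygous replicate 3 (3.69) the ΔG difference was 0.75 and called. Ccnd2, Cdkn2b, Cdkn2c and Ccne1 had adjusted p-values of at least 0.155 (limma) in ES cells of both lines, with 95% intervals of the difference that reached from −0.60 to 0.43. Of these, Ccne1 did not overlap between genotypes in ΔG ES cells (0.19 ± 0.056). With the GC trend removed, Ccne1 was at 0.15 (limma, adjusted p = 0.0232) and Cdkn2c at 0.44 (adjusted p = 0.0231) in ΔPG ES cells. In ΔG ES cells Ccne1 was then at 0.19 (limma, adjusted p = 0.0397), a difference that hardly moved. None of these differences was called. Fits with the trend removed cover only genes with a mean of at least 3, so their adjusted p-values cannot be set against those of the main fits.

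**Figure D3:**
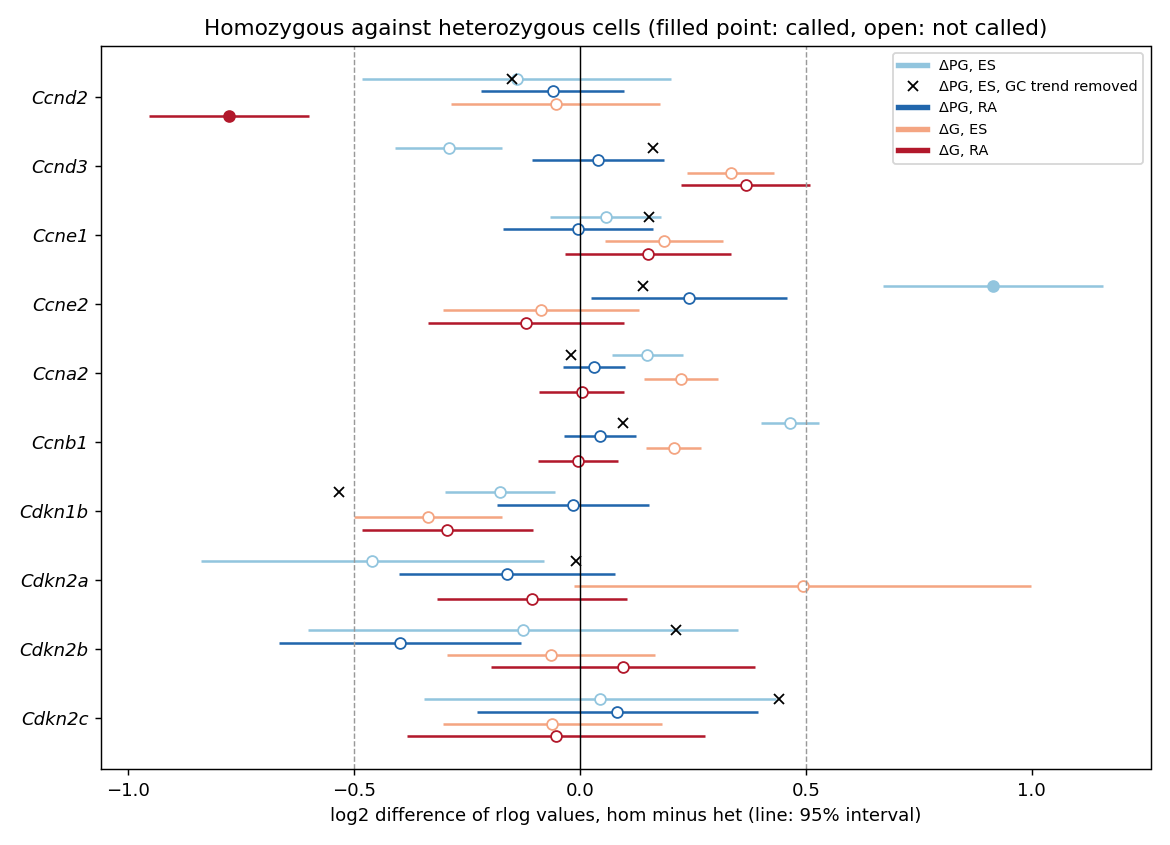
Homozygous minus heterozygous difference of rlog values (log2, horizontal axis) for each member in ES and RA samples of ΔPG and ΔG cells, with 95% intervals from limma (3 against 3 samples). Crosses give the ΔPG ES values after removal of the trend on GC content. The called differences are Ccne2 in ΔPG ES (0.91, with its cross at 0.14) and Ccnd2 in ΔG RA (−0.78).

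**Figure D4:**
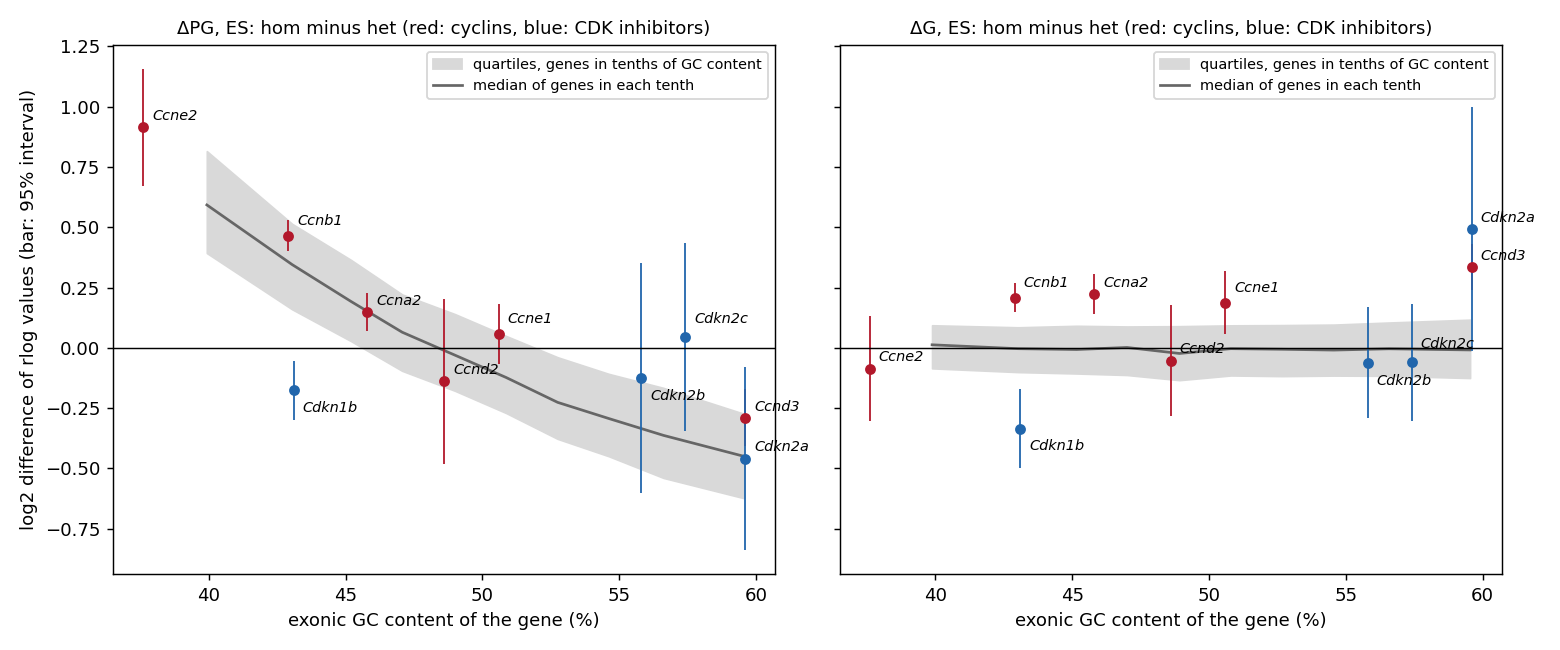
Homozygous minus heterozygous difference of each member in ES cells (log2, vertical axis; bars are 95% intervals) against the GC content of its exons (%), for ΔPG on the left and ΔG on the right. The gray line and band are the median and quartiles of all genes whose mean rlog value reached 3, in 10 bins of GC content. The ΔPG median falls from 0.59 to −0.45 from the lowest to the highest bin, and the ΔG median stays between −0.02 and 0.01.

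After RA, no member was called between the ΔPG genotypes, and none passed the adjusted p alone, where 0.846% and 4.58% of all genes did by limma. An unadjusted p under 0.05 was found for 2 members, Ccne2 (0.24 ± 0.097, SE) and Cdkn2b (−0.40 ± 0.12). Among all 21979 genes tested it was found for 3069 (limma). The Cdkn2b samples did not overlap between genotypes (adjusted p = 0.139, limma). In ΔG cells 1 member, Ccnd2, was called, where 2.14% of all genes were, and 3 members passed the adjusted p alone, against 11% of all genes. Median differences over the members were 0.01 (ΔPG) and −0.03 (ΔG), and over all genes 0.01 and 0.00.

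The Ccnd2 difference in ΔG RA samples was −0.78 ± 0.085 (SE, 1.71-fold lower in homozygous cells, limma adjusted p = 2.77e-06). The lowest heterozygous sample was at 7.39 and the highest homozygous one at 6.81. All 15 alternative settings left it called, between −0.84 and −0.73. In ΔPG RA samples Ccnd2 overlapped between genotypes, at −0.06 ± 0.071 (limma, adjusted p = 0.817). Other measures moved with the ΔG RA difference: of the fibroblast markers, Col1a2 was called lower in homozygous ΔG RA samples (−1.41 ± 0.063) and 1 of the 4 markers in all was called, while none of the endoderm, neural, ES and RA markers passed both limits (3 RA, 1 endoderm and 2 neural markers passed the adjusted p alone). Whether these bear on Ccnd2 was not tested. Ccnd3 was higher in homozygous ΔG RA samples by 0.37 ± 0.069 (limma, adjusted p = 0.00145) without overlap, and Cdkn1b had a difference of −0.29 ± 0.091 (adjusted p = 0.0521) with overlap, both below the limit of 0.5.

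Whether RA acted differently in the genotypes was tested with an interaction term over the 12 libraries of a line (RA effect in homozygous minus RA effect in heterozygous cells). In ΔPG 1 of the 10 members was called, Ccne2, where 13.9% of all genes were, and 4 passed the adjusted p alone, against 29.1% of all genes. The Ccne2 interaction was −0.67 ± 0.15 (SE, limma adjusted p = 0.00388) and 0.076 (adjusted p = 0.749) with the GC trend removed. Ccnb1 (−0.42), Ccnd3 (0.33) and Ccna2 (−0.12) were the others to pass the adjusted p (limma), at −0.06, −0.12 and 0.05 without the trend. Its removal also brought calls for 2 other members, Cdkn1b (0.51, against 0.16 as deposited) and Cdkn2b (−0.61, against −0.27). In ΔG 1 member was called, Ccnd2, where 2.38% of all genes were, and 3 passed the adjusted p alone, against 5.28% of all genes. The Ccnd2 interaction was −0.72 ± 0.16 (limma, adjusted p = 0.00726), was called under all 20 alternatives and kept its value without the GC trend (−0.72). Ccna2 and Ccnb1 had interactions of −0.22 ± 0.061 and −0.21 ± 0.054 in ΔG. The Cdkn2a interaction in ΔG was −0.60 ± 0.21 (limma, adjusted p = 0.136) and was called without the homozygous ES replicate 3 (−0.86), with the GC trend removed (−0.63) and over genes with a mean of at least 3. The comparisons of one line share samples, so these values are not independent of those given before. The median interaction over the members was −0.01 in ΔPG and −0.03 in ΔG, and over all genes 0.01 and −0.01.

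The rest of the pathway was followed with 42 genes in 5 lists, all of them tested. In the RA comparisons, 9 were called higher and 12 lower in heterozygous ΔPG cells, 8 and 5 in homozygous ΔPG cells, 12 and 5 in heterozygous ΔG cells and 9 and 7 in homozygous ΔG cells. Together these were 50% of the 42 genes (31.6% of all genes), 31% (27.8% of all genes), 40.5% (29.5%) and 38.1% (29.2%), so that the share in homozygous ΔPG cells was near that of all genes. With the GC trend removed, 10 higher and 6 lower calls stood in heterozygous ΔPG cells, among the 40 genes that could be corrected. Of all corrected genes, 45.3% were called there. Ccnd1, the third D-type cyclin gene, fell in all 4, with log2 differences of −1.69, −1.45, −2.02 and −1.41 in that order. Ccng2, of an unconventional cyclin linked to cell cycle arrest, rose by 1.36, 0.85, 1.10 and 1.53. Ccng1 rose by 1.26 in heterozygous ΔPG cells, Ccnf fell by 0.74 there, and Ccnb3 rose by 0.70 in heterozygous ΔG cells. The Ccnb3 values were very low, with a mean rlog value of 0.21 in ES and 0.91 in RA samples of those cells. These lie below the mean of 3 needed for GC removal. The other 3 cyclins of the list of 8 were called in none of the RA comparisons.

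The CIP/KIP inhibitors outside the member list moved in opposite directions with RA. Cdkn1a, which encodes the p53 target p21Cip1, fell in all 4, with log2 differences of −1.02 and −2.49 in heterozygous and homozygous ΔPG cells and −2.74 and −2.83 in ΔG cells. Cdkn1c, which encodes p57Kip2, rose by 1.16 and 1.54 in ΔPG and by 1.96 and 2.09 in ΔG. Cdkn2d, the remaining INK4 gene, fell by 0.70 in heterozygous ΔPG cells (−0.46 and not called with the GC trend removed) and was not called in the others. Of the 5 kinases, Cdk2 (−0.51) and Cdk4 (−0.53) fell in heterozygous ΔPG cells, where neither was called with the GC trend removed (−0.49 and −0.41), and none was called in the other RA comparisons.

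Of the 13 retinoblastoma and E2F genes, 6 rose and 3 fell in heterozygous ΔPG and 4 and 2 in homozygous ΔPG cells. In ΔG, 5 rose and 2 fell in heterozygous and 5 and 3 in homozygous cells. These were 69.2%, 46.2%, 53.8% and 61.5% of the list, against 31.6%, 27.8%, 29.5% and 29.2% of all genes. The largest rises were those of Rb1 (1.88, 1.67, 1.19 and 1.18), the brake on E2F that cyclin D kinases phosphorylate, and of E2f7 (1.20, 1.37, 1.71 and 1.52), a repressor of the family. E2f1, an activator, fell in heterozygous ΔPG, homozygous ΔPG and heterozygous ΔG cells (−1.13, −0.51 and −0.68). E2f2 fell in both ΔPG genotypes (−1.26 and −0.67) and in homozygous ΔG cells (−0.51), E2f4 in the heterozygous cells of both lines (−0.73 in ΔPG, where it was −0.48 and not called with the GC trend removed, and −0.51 in ΔG) and Rbl2 in homozygous ΔG cells (−0.58). Of the 13 regulators of CDK activity and cyclin turnover, 23.1%, 23.1%, 38.5% and 30.8% were called in the same order, below or near the shares of all genes in ΔPG and homozygous ΔG cells. Among them, Fbxw7, the receptor through which cyclin E is degraded, rose in 3 of the 4 comparisons (0.51, 0.81 and 0.68, not in heterozygous ΔPG cells). Cdc25b, a phosphatase that activates CDKs, rose in the same 3 (0.75, 0.57 and 0.71), and Fbxo5, an inhibitor of the ubiquitin ligase that destroys mitotic cyclins, fell in them (−0.69, −0.55 and −0.72). Skp2, the receptor through which p27Kip1 is degraded, rose in heterozygous ΔG cells (0.74), Cks2 fell in homozygous ΔG cells (−0.60), and Cdc20 and Fzr1, activators of the same ubiquitin ligase, fell in heterozygous ΔPG cells (both −0.54), where they were −0.31 and −0.30 and not called with the GC trend removed.

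Between genotypes, 6 of the 42 genes were called higher and 6 lower in ΔPG ES cells, and 2 lower in ΔPG RA cells. None was called in ΔG ES cells, and 1 each way in ΔG RA cells. In ΔG ES cells, 3 of the 42 passed the adjusted p alone, against 5.22% of all genes. There 14 of the 42 had an unadjusted p under 0.05 by limma, as did 3406 of all 22048 genes. The called shares were 28.6% in ΔPG ES (13.2% of all genes), 4.76% in ΔPG RA (0.846%) and 4.76% in ΔG RA cells (2.14%). Fitted over genes with a mean of at least 3 alone, 2784 (ES) and 189 (RA) of 11904 genes were called in ΔPG. In ΔG RA cells these were 363 of 11997. Cdkn1a and Ccng1, both p53 targets, were lower in homozygous ΔPG cells in ES (−0.73 and −1.46) and in RA (−2.20 and −2.46). Trp53 was lower in the same cells (−3.02 and −2.21), and its part in these differences was not tested. Cell type markers moved as well. In homozygous ΔPG ES cells, 1 of 6 ES markers (Pou5f1, −0.52) and 1 of 2 neural markers (Nes, −0.65) were called lower and no RA, endoderm or fibroblast marker was called. With the GC trend removed, none of the markers that could be corrected was called in these ES cells. In homozygous ΔPG RA cells, 2 of 5 endoderm markers (Gata4, −0.80, and Sox17, −0.50), 1 of 4 fibroblast markers (Col3a1, −0.67) and 1 of 6 ES markers (Klf4, −0.61) were called lower and 1 of 5 RA markers (Hoxb1, 0.57) higher. The part of these cell types in the differences was not tested. Cdkn2d was lower in homozygous ΔPG ES cells (−0.79). Of the kinases, Cdk1, the partner of cyclin B1, was higher in homozygous ΔPG ES cells (0.53). In ΔG RA cells, Cdk6, a partner of the D-type cyclins, was higher (0.69) and Ccnb3 lower (−0.57) in homozygous samples. The mean rlog values of Ccnb3 were very low, at 0.33 in homozygous and 0.91 in heterozygous ΔG RA samples. The other called genes in ΔPG ES cells were Ccng2 (0.64), Ccnh (0.57), E2f8 (0.62), Cks2 (0.65) and Fbxo5 (0.65) on the higher side and Ccnf (−0.57), E2f2 (−0.59) and Cdc20 (−0.58) on the lower side. After removal of the GC trend, only Ccng1 (−1.99) and E2f8 (0.60) of these 12 genes were called in ΔPG ES cells. Among the 40 genes that could be corrected, 1 was called higher and 3 lower, which includes genes outside these 12. Of all corrected genes, 7.28% were called there. Of the rest of the 12, Cdk1 was at 0.49, Cdkn1a at −0.44 and Cdkn2d at −0.45, and the sign of Ccnh turned (−0.07). The interaction was called higher for 7 and lower for 7 of the 42 genes in ΔPG, where 13.9% of all genes were called. Over genes with a mean of at least 3 alone, 2976 of 11904 were called. Among the positive values were those of Cdc25b (0.76), Cdkn2d (0.69), Pkmyt1 (0.69), E2f1 (0.61) and Ccnf (0.60), and among the negative ones those of Cdkn1a (−1.47), Ccng1 (−0.998), Cks2 (−0.54), Ccnh (−0.53), E2f6 (−0.51) and Cdk7 (−0.51). Only Cdc25b (0.51), Cdkn1a (−1.75) and E2f6 (−0.55) were called with the GC trend removed, where 9.43% of all corrected genes were. In ΔG the interaction was called for Ccnd1 (0.62), Ccnb3 (−0.57, with the same very low values) and Ccng1 (−0.55). These were 7.14% of the 42 genes, against 2.38% of all genes. With the GC trend removed, 1 higher and 1 lower call were found among the 39 genes that could be corrected, where 4.49% of all corrected genes were called.

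Of the members, Ccnd2, Cdkn2a, Cdkn2b and Cdkn2c spanned at least 1 log2 unit over the 12 samples in both tables, Ccne2 in ΔPG and Ccnd3 in ΔG. For these, the genes with the most similar profile were found as those with the smallest mean absolute difference of centered rlog values over the 12 samples. For Ccnd2 they were Efnb2 (0.098) and Lrp2 (0.10) in ΔPG and Fras1 (0.069) and Shisa3 (0.081) in ΔG. For Ccne2 in ΔPG they were Tlk1 (0.071) and Hnrnpd (0.091). For Cdkn2a they were Vash1 (0.085) and BC031353 (0.092) in ΔPG and Fam171a2 (0.13) and Bach2 (0.14) in ΔG. For Cdkn2b they were Fam115a (0.13) and Hipk2 (0.14) in ΔPG and Ep300 (0.064) and Slc9a7 (0.065) in ΔG. For Cdkn2c they were C2cd4c (0.072) and Ptprn (0.081) in ΔPG and Ttc6 (0.068) in ΔG, and for Ccnd3 in ΔG B4galt6 (0.067) and Ndufa6 (0.071). None of these pairs was tested. Of the members, the one nearest to Cdkn2b in ΔG was Cdkn2c (0.15), and the member nearest to Cdkn2a was its neighbor Cdkn2b in both tables, at 0.31 in ΔPG and 0.46 in ΔG.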

How the data were processed

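Expression was analysed in the 24 RNA-seq libraries of ΔPG and ΔG cells. The library kit keeps strand. Per the submitters' processing notes, the authors used TopHat2 2.1.0, Picard, HTSeq 0.6.0 and DESeq2 1.14.1 with mm9. The authors deposited regularized log values on the log2 scale, in 1 table per line. Use of the groups in that transformation is not given in the sources used here. As the values hold no counts, neither depth nor counting intervals are given.

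Samples were grouped as labelled. R 4.3.3 with limma 3.58.1 (lmFit, eBayes with a variance trend) was fitted over every gene that varied, on the 6 samples of a comparison or the 12 of an interaction. Calls needed a Benjamini-Hochberg adjusted p under 0.1 together with a log2 difference over 0.5 in size. The scripts were tested on simulated data. Exonic GC content and positions came from the NCBIM37 annotation. To remove the GC trend, deviations from gene means were smoothed against GC content per library (lowess, span 0.3) over genes with a mean of at least 3, and the curve was subtracted.

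The members and gene lists were chosen with earlier results of these data known. Named are all members, in each list up to 2 called genes with the largest rise and 2 with the largest fall per comparison, 5430416N02Rik and Trp53 as checks, the cell type markers, and per member the 2 genes of most similar profile, of which 1 is not reported here. E2f4 in heterozygous ΔPG and Cdc25b in heterozygous ΔG cells were named after their values were seen. Alternatives were other limits, all 12 samples in the fit, no variance trend, a filter at a mean of 3, quantile normalization, median centring, GC removal, a replicate block and leaving out each sample. Same-numbered replicates did not deviate together: no comparison had every pair's correlation of deviations above 0.1, and all lay between −0.026 and 0.085. The 4C-seq regions were not used here. Capture-C and RIP-seq were not analysed here.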

Additional observations from a re-analysis of the deposited data

Results flagged for a closer look

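In ΔPG cells, the effect of RA on Ccne2 differed between genotypes by the test of the difference itself, with an interaction of −0.67 on the log2 scale (limma over 12 samples, adjusted p = 0.00388). With the GC trend removed it was 0.076 (adjusted p = 0.749), no longer called and of the other sign. In ΔG cells the same test picked out Ccnd2, with an interaction of −0.72 (limma, adjusted p = 0.00726).

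In undifferentiated cells Ccnd3 went opposite ways in the 2 lines: every homozygous ΔPG sample lay below every heterozygous one (log2 difference −0.29), and every homozygous ΔG sample lay above every heterozygous one (0.33). This contrast between the lines was not tested, and with the GC trend removed the ΔPG difference was 0.16.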

How the results depend on the processing

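Of 1600 values of single members under an alternative, 1454 kept their direction and their side of the limits, 63 gained a call, 10 lost one, and 65 changed sign where neither value was called and the reported adjusted p was at least 0.1. The sign also turned for 8 differences whose reported adjusted p was under 0.1. After GC removal these were Ccnd3 (0.16) and Ccna2 (−0.020) in ΔPG ES and the ΔPG interactions of Ccne2 (0.076, the only one of the 8 that had been called), Ccnd3 (−0.12) and Ccna2 (0.055). With quantile normalization they were the RA differences of Ccna2 in homozygous ΔPG (0.088) and ΔG (0.072) cells and of Ccnb1 in heterozygous ΔG cells (0.054). Of the lost calls, 5 were those of Ccnd3 in homozygous ΔPG cells under RA.

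With the adjusted p alone as the limit, the number of members called rose from 1 to 6 (ΔPG ES, homozygous against heterozygous), 5 to 8 and 4 to 9 (RA in heterozygous and homozygous ΔPG), 1 to 4 (ΔPG interaction), 0 to 4 (ΔG ES), 1 to 3 (ΔG RA), 5 to 10 in both ΔG genotypes under RA, and 1 to 3 (ΔG interaction). GC removal gave 2 in both interactions, through Cdkn1b and Cdkn2b in ΔPG and Ccnd2 and Cdkn2a in ΔG. Quantile normalization gave 3 in homozygous ΔG cells under RA, and the filter at a mean of 3 gave 2 in the ΔG interaction. Leaving out each replicate gave 1 to 2 members in ΔPG ES, 0 to 1 in ΔG ES, 1 to 2 in the ΔG interaction, 3 to 5 in homozygous ΔPG cells and 5 to 6 in the other RA comparisons.

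Counts over all genes also moved. With the adjusted p alone they were 7926, 1006, 12607, 11424 and 6387 in ΔPG (ES, RA, heterozygous RA response, homozygous RA response, interaction) and 1152, 2433, 12012, 11772 and 1164 in ΔG, against 2893, 186, 6947, 6116 and 3056 and 217, 471, 6499, 6434 and 524. GC removal, over the 11904 genes with a mean of at least 3, gave 867 in ΔPG ES and 1122 in the ΔPG interaction. Without GC removal the same genes gave 2784 and 2976. An adjusted p under 0.05 with a fold over 1.5 left 117 (ΔG ES), 275 (ΔG RA) and 268 (ΔG interaction).

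The replicate block changed no member's call: the paired fit called 1 member in ΔPG ES, 0 in ΔPG RA, 0 in ΔG ES and 1 in ΔG RA, as did the fit without it, and over all genes it lowered the calls to 112 in ΔPG RA and 44 in ΔG ES. Since the numbers did not pair the samples, the main values carry no block. The cause of these changes was not tested. Without counts, precision at low expression, as for Cdkn2b and Cdkn2c, cannot be set against depth.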
